A study of Homo sapiens with 4 samples.

Results

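The kinesin family was taken as every protein-coding gene with a symbol made of KIF or KIFC and a number, which gave 42 of the 58735 genes in the count table. By known role, 14 were classed as mitotic, 15 as transport and 13 as other kinesins. Kinesins are ATPase motors that walk along microtubules or take their ends apart. A set of them builds and divides the mitotic spindle and separates the daughter cells at cytokinesis, and their transcripts accumulate in G2 and M phase. Others carry vesicles, organelles and mRNA through the cytoplasm between divisions, and further members work at cilia, centrioles and growing microtubule tips. Mebendazole (MBZ) is a benzimidazole anthelmintic that binds tubulin, the protein of the track on which these motors act.

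MDA-MB-231 and SUM159, both established human triple-negative breast cancer (TNBC) lines without any engineered allele named in the labels, were cultured for 72 h with 1 µM MBZ or with the DMSO vehicle as control (0 µM MBZ). Poly(A)-enriched RNA was sequenced as 1 library for each line and treatment, and the authors deposited raw read counts per gene. With 1 library per condition, differences have no replicate check and no p-value is given within a line.

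The libraries held 17143139 to 24897586 counted reads, of which the kinesins took 67413 in MDA-MB-231 with DMSO, 39184 in MDA-MB-231 with MBZ, 17787 in SUM159 with DMSO and 36820 in SUM159 with MBZ. Per 1000000 reads this was 2708, 2286, 951 and 1948 counts in that order, a scale written CPM here. Other CPM values were also normalized by the trimmed mean of M values (TMM). VIM, CD44 and EGFR, present in TNBC lines, lay between 171 and 3285 CPM in every library, and of the markers that TNBC lines lack or hold low, PGR had 0 reads in each, ESR1 had 1, 0, 2 and 18 reads, and ERBB2 had 85.9, 71.2, 110 and 59.0 CPM in the order above. Markers of 4 other cell types (PTPRC, CD3E, PECAM1 and ALB) summed to 16.0, 18.6, 52.6 and 43.0 CPM in the same order of libraries, and PECAM1 was the highest of them with at most 40.0 CPM. PTPRC, a leukocyte marker, had 8 and 23 reads in MDA-MB-231 with DMSO and MBZ (log2 1.78, 0.58 to 3.17) and 216 and 60 in SUM159 (-2.16, -2.60 to -1.75), directions opposite to those of the mitotic kinesins described below, and CD3E and ALB had at most 2 reads in a library. Their part in the results was not tested.

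A difference was counted where it was at least 1.5-fold and the 2 libraries averaged 10 reads or more for the gene. In MDA-MB-231 this left 31 kinesins, in SUM159 35, and in both lines 30. The remaining 6 kinesins averaged fewer than 10 reads in both lines. KIF2B, a spindle depolymerase, and KIF19, which limits the length of motile cilia, had 0 reads in all 4 libraries. KIF4B, the intronless near copy of KIF4A, and KIF12, a kinesin of kidney and liver epithelium, had 1 read in all, and KIF6, a cilium motor, and KIF1A, a carrier of synaptic vesicle precursors, had at most 5 reads in a library. Reads of KIF4A and KIF4B can be hard to assign, and the KIF4A values are uncertain to that degree.

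The promoters of the mitotic kinesins held 2 short motifs more often than those of the other classes, a difference given here as a description. The motifs searched, on both strands, were TTTGAA, a core of the cell cycle genes homology region (CHR) to which the DREAM and MYB-MuvB complexes bind in promoters of G2/M genes, and CCAAT, the box bound by NF-Y. Read from the other strand they appear as TTCAAA and ATTGG. In RefSeq windows of 250 bases before to 50 bases after the start site on GRCh38.p14, matched by symbol for 34 of the 42 kinesins, TTTGAA was found in 10 of 14 mitotic kinesins (71.4%), in 1 of 11 transport kinesins (9.09%) and in 0 of 9 others, against 15.8% of all 15843 protein-coding genes with a window. CCAAT was found in 78.6% of mitotic, 36.4% of transport and 33.3% of other kinesins, against 42.1% of all genes. Both motifs stood in 9 of the 14 mitotic kinesins (64.3%), against 8.17% of all genes. The classes were set by role and not by sequence, but with earlier results of these data known. KIF2A, a depolymerase of spindle poles and of neurons that was classed as other, had neither motif in its window. A match is a description of these letters, not a measured binding site.

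**Figure D1:**
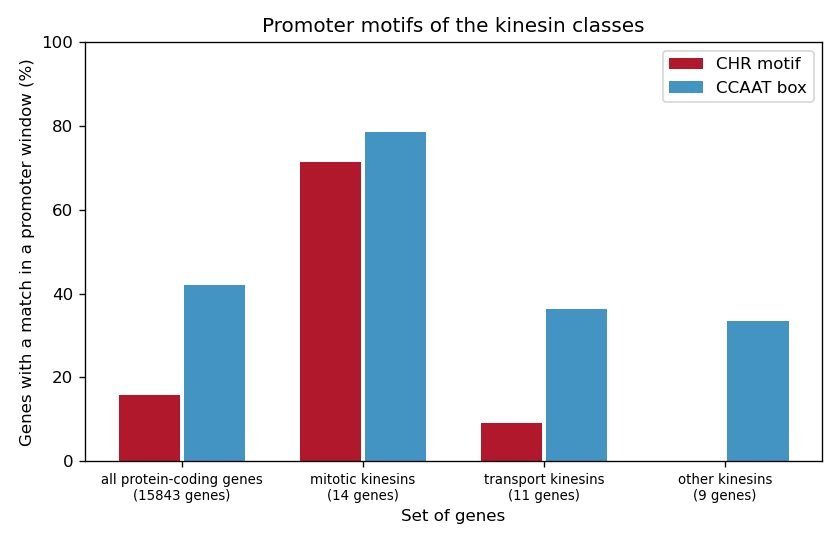
Percent of genes with a CHR motif (red) or a CCAAT box (blue) in a promoter window, on the vertical axis, for all protein-coding genes and the 3 kinesin classes on the horizontal axis. The mitotic kinesins stand at 71.4% and 78.6%, above the 15.8% and 42.1% of all genes.

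Stretches of 3 mitotic promoters are shown first because both motifs lie next to each other just before the start, with the motifs in capitals. KIF11 (chr10:92593062-92593122, plus strand) slides antiparallel spindle microtubules apart, KIF4A (chrX:70290031-70290090, plus strand) is a chromokinesin of chromosome arms and midzone, and KIF18A (chr11:28108157-28108216, minus strand) damps kinetochore microtubules. The first bases of their motifs were 25, 24 and 35 bases apart.
KIF11: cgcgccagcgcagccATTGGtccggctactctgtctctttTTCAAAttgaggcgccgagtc
KIF4A: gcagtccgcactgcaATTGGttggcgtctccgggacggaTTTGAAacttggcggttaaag
KIF18A: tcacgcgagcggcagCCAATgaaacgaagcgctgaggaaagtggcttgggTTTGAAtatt

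The next stretches show the other arrangements. KIF20A, the midzone motor of cytokinesis (chr5:138179003-138179064, plus strand), had 2 CCAAT boxes and no TTTGAA. KIF24, a centriolar depolymerase outside the mitotic class (chr9:34329296-34329437, minus strand), had 3 CCAAT boxes and no TTTGAA. KIF5B, the ubiquitous heavy chain of conventional kinesin (chr10:32056465-32056580, minus strand), was the only one of the 11 transport kinesins with a window to hold TTTGAA, 81 bases from its CCAAT box.
KIF20A: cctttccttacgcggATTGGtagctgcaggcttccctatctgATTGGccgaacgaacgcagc
KIF24: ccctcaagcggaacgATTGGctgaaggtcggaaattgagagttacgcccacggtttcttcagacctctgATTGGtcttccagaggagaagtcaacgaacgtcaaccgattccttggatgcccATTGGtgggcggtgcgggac
KIF5B: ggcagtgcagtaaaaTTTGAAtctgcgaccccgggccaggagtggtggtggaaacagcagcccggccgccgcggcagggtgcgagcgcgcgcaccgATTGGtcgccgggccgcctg

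The mitotic kinesins were mostly lower with MBZ in MDA-MB-231 and all higher with MBZ in SUM159. On the log2 scale, the median change of the 12 that could be counted was -0.88 in MDA-MB-231 (1.83-fold lower) and 2.20 in SUM159 (4.60-fold higher), after TMM normalization of the pair, while the medians of all genes were -0.02 and -0.03. In MDA-MB-231, 9 of 12 were at least 1.5-fold lower and 0 higher, where 15.8% of all 15142 genes were lower and 18.3% higher. In SUM159, all 12 were at least 1.5-fold higher, where 21.5% of all 15674 genes were higher and 21.7% lower. They were all at least 2-fold higher in SUM159 (12.7% of all genes), 8 of them at least 4-fold (4.7% of all genes), and 3 were at least 2-fold lower in MDA-MB-231 (5.14% of all genes). All 12 lay below 0 in MDA-MB-231 after TMM normalization, whereas scaling by total counts alone, which moved the median of all genes there to 0.25, put KIF14 at 0.04 and KIF18A at 0.18, above 0 but below that median. On that scale 6 of the 12 were at least 1.5-fold lower, where 7.57% of all genes were. In bulk RNA, a different share of cells in mitosis and a different amount of RNA per cell cannot be told apart. With 1 culture per condition, the treatment and the state of the culture cannot be told apart either. The authors report a G2/M arrest of MDA-MB-231 cells with MBZ, by flow cytometry at an earlier time, and its part here was not tested.

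KIF2C, the centromeric depolymerase MCAK (ENSG00000142945, chr1:44739818-44767767 on GRCh38, plus strand, 21 exons in the canonical transcript), had the largest difference among the mitotic kinesins in both lines. Its level was 256 CPM in MDA-MB-231 with DMSO and 97.8 CPM with MBZ, and 12.1 CPM in SUM159 with DMSO and 91.2 CPM with MBZ. It was 2.65-fold lower with MBZ in MDA-MB-231 (log2 -1.40, 95% counting interval -1.48 to -1.33) and 7.55-fold higher in SUM159 (log2 2.92, 2.71 to 3.13). The DMSO libraries stood far apart and the MBZ libraries lay close together. No TTTGAA and no CCAAT was found in its promoter window.

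The motors that shape the spindle followed the same pattern. KIFC1, the minus-end motor that focuses spindle poles and clusters extra centrosomes, had 187 and 79.5 CPM in MDA-MB-231 with DMSO and MBZ, and 10.7 and 75.3 CPM in SUM159 (log2 fold changes of -1.25, -1.34 to -1.17, and 2.82, 2.59 to 3.05). KIF11 had 134 and 70.1 CPM in MDA-MB-231 and 21.2 and 45.4 CPM in SUM159, and its difference in SUM159 was the smallest of the class (log2 1.10, 0.92 to 1.28). KIF15, which crosslinks spindle microtubules and shares the task of KIF11, had 40.7 and 24.2 CPM in MDA-MB-231 and 3.56 and 14.98 CPM in SUM159. In both spindle-separating motors the SUM159 library with DMSO was the lowest and the MDA-MB-231 library with DMSO the highest. KIF18B, which limits astral microtubules, was 1.90-fold lower in MDA-MB-231 and 7.01-fold higher in SUM159, from 106, 56.5, 8.51 and 59.7 CPM in the 4 libraries in the order given above.

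The chromosome motors and KIF18A differed more between themselves in MDA-MB-231 than in SUM159. KIF22, the chromokinesin that pushes chromosome arms from the poles, had 117, 51.8, 30.4 and 94.6 CPM, 2.28-fold lower with MBZ in MDA-MB-231 and 3.11-fold higher in SUM159. KIF4A had 161, 83.3, 11.3 and 53.8 CPM, 1.95-fold lower and 4.74-fold higher. KIF18A had 25.5, 24.3, 4.77 and 16.6 CPM, with a log2 fold change in MDA-MB-231 of -0.09 whose counting interval (-0.26 to 0.09) included 0, and of 1.80 (1.44 to 2.17) in SUM159. KIF18A was the only mitotic kinesin with an interval including 0 in either line.

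The log2 fold changes of the 4 motors of cytokinesis lay between -0.83 and -0.22 in MDA-MB-231 and between 1.96 and 2.80 in SUM159. KIF20A had 227, 140, 22.9 and 160 CPM, 1.64-fold lower with MBZ in MDA-MB-231 and 6.98-fold higher in SUM159, where it exceeded its level in MDA-MB-231 with MBZ. KIF20B, its relative at the midzone, had 68.8, 39.2, 11.6 and 45.2 CPM. KIF23, the motor of the centralspindlin complex, had 104, 75.5, 13.9 and 62.1 CPM and a log2 fold change of -0.48 (-0.58 to -0.39) in MDA-MB-231, short of 1.5-fold. KIF14, the midbody motor, had 50.5, 43.8, 4.71 and 29.7 CPM, with -0.22 (-0.35 to -0.09) in MDA-MB-231 and 2.65 (2.31 to 3.01) in SUM159. KIF14, KIF18A and KIF23 were thus the 3 mitotic kinesins that did not reach 1.5-fold in MDA-MB-231, while each was over 3-fold higher in SUM159.

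**Figure D2:**
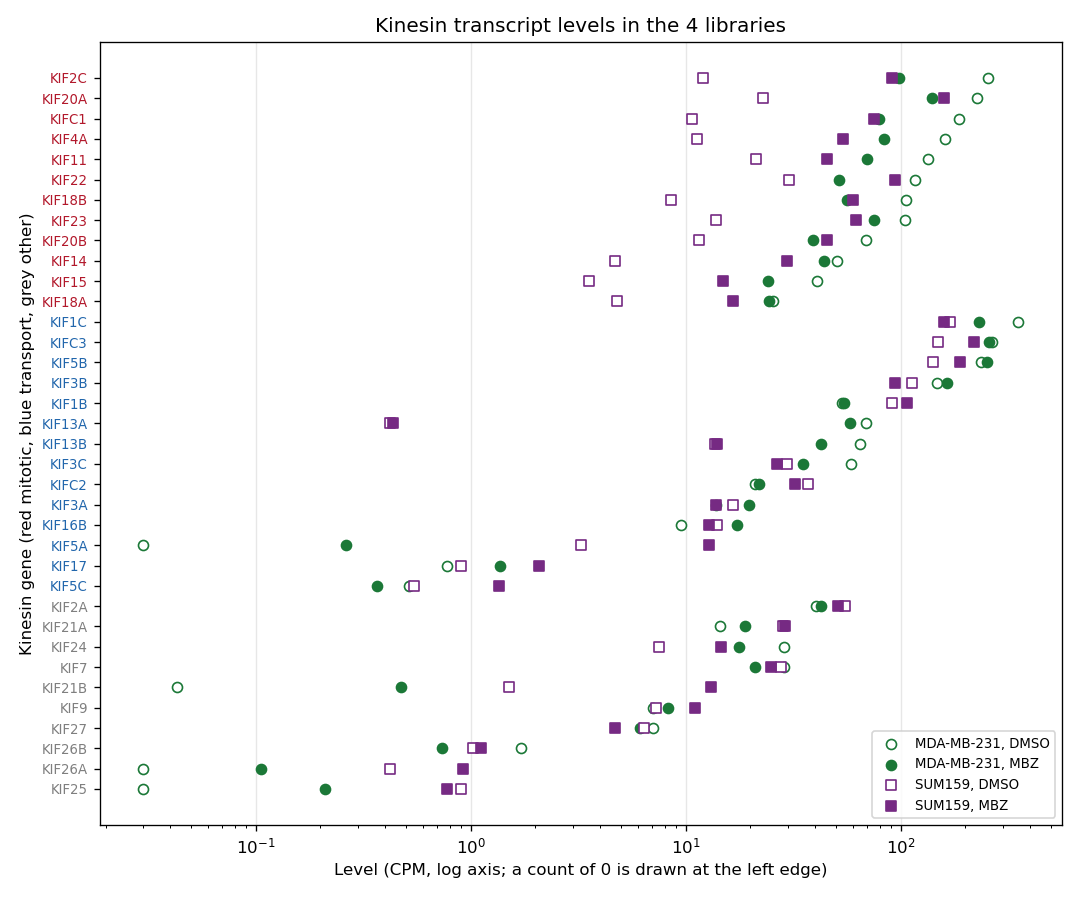
Level of each of the 36 kinesins that averaged 10 reads or more in a line, in CPM on a log axis, with circles for MDA-MB-231, squares for SUM159, open symbols for DMSO and filled symbols for MBZ, 1 library each. For all 12 mitotic kinesins the open square is lowest and the open circle highest, and the filled symbols lie between them.

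Of the 30 kinesins counted in both lines, 10 were at least 1.5-fold lower in MDA-MB-231 and at least 1.5-fold higher in SUM159, against 3.12% of 13733 genes. They were 9 mitotic kinesins and KIF24. With total counts alone 6 of the 10 remained (KIF22, KIF2C, KIFC1, KIF4A, KIF11 and KIF18B), against 2.17% of genes, and KIF15, KIF20A, KIF20B and KIF24 fell short of 1.5-fold in MDA-MB-231, at log2 -0.50, -0.45, -0.56 and -0.44. The reverse, higher in MDA-MB-231 and lower in SUM159, was met by 0 kinesins and 2.92% of genes. Of the 30, only KIF17 was at least 1.5-fold higher in both lines, where 6.12% of genes were, and 0 kinesins were lower in both, where 4.71% of genes were. Within the mitotic class the sizes of the changes in the lines were weakly related (Pearson's r -0.15, Spearman's coefficient -0.29, 12 genes) in genes that share their 4 libraries, and over all genes they were 0.19 and 0.17.

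**Figure D3:**
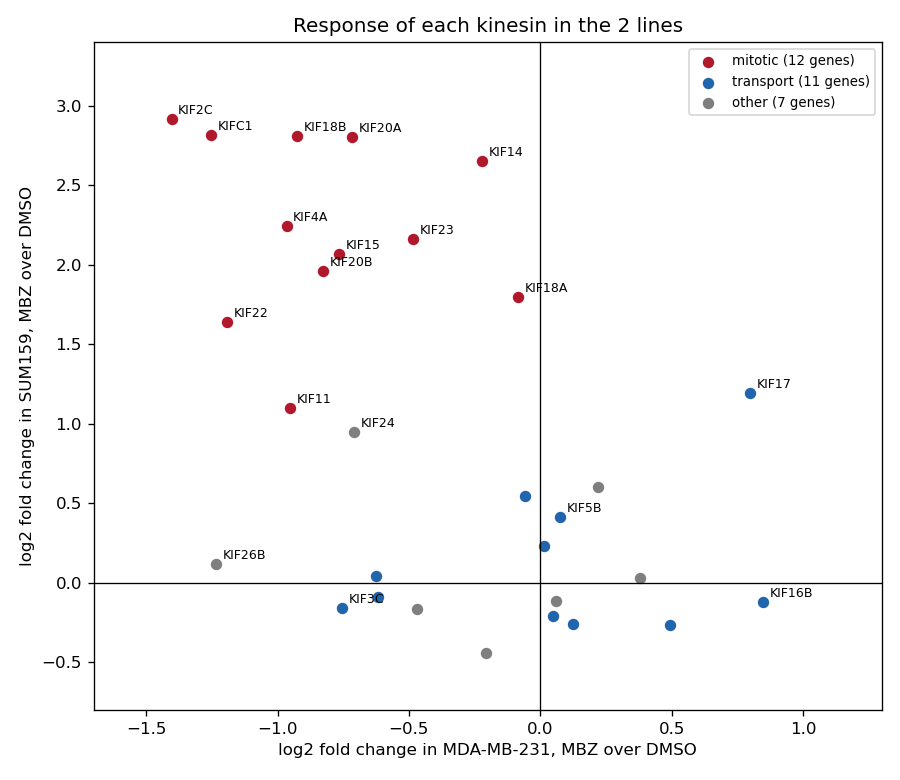
Log2 fold change with MBZ over DMSO in MDA-MB-231 (horizontal axis) and SUM159 (vertical axis) for the 30 kinesins counted in both lines, 1 point a gene. All 12 mitotic kinesins (red) lie at the upper left, and the transport kinesins (blue) lie between -0.26 and 1.20 on the vertical axis.

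With 72 h of DMSO, all 12 mitotic kinesins were higher in MDA-MB-231 than in SUM159, with a median of 10.3-fold (log2 3.37) and a range from log2 1.94 for KIF22 to 4.40 for KIF2C. With MBZ, the median difference was 1.14-fold (log2 0.19, from -0.87 to 0.69), and 8 of the 12 lay within 1.5-fold of each other, where 50.2% of all genes did, against 0 with DMSO, where 43.3% of all genes did. For the 11 transport kinesins counted in both lines, the median was 1.31-fold with DMSO and 1.33-fold with MBZ. Over all 13733 genes the medians were log2 0.02 and 0.06. Of the 34 kinesins that averaged 10 reads or more in the DMSO libraries, 20 were at least 1.5-fold higher in MDA-MB-231, where 30.6% of all 15559 genes were, and 5 in SUM159, where 31% were. The difference between the DMSO libraries and the changes with MBZ share those libraries and are not independent.

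**Figure D4:**
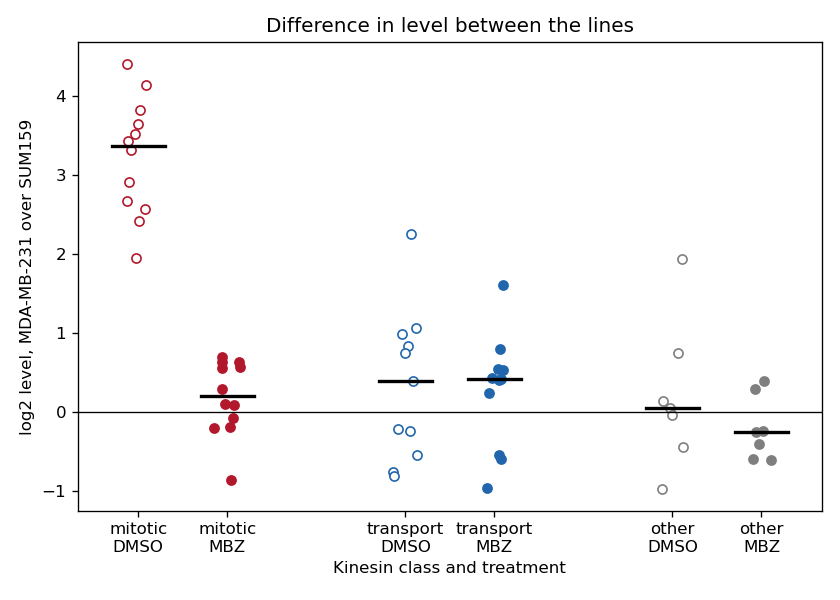
Log2 ratio of the level in MDA-MB-231 to that in SUM159 (vertical axis) for each kinesin counted in both lines, by class and treatment (horizontal axis), with open points for DMSO, filled points for MBZ and a black line at the median. The mitotic median is 3.37 with DMSO and 0.19 with MBZ, while the transport median is 0.39 and 0.42.

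The genes around the mitotic kinesins had the same directions in most cases. CENPE, the kinetochore kinesin whose symbol lies outside the rule, had 75.0, 36.5, 7.06 and 36.3 CPM (log2 fold changes of -1.06, -1.19 to -0.93, and 2.36, 2.08 to 2.66). Of 16 partners of mitotic kinesins, such as passenger and midzone proteins, 11 were lower in MDA-MB-231 and all 16 higher in SUM159, beside 15.8% and 21.5% of all genes, with medians of -0.95 and 2.15. They ranged from -1.50 for PRC1, the midzone bundler, to 0.03 for HMMR in MDA-MB-231 and from 0.93 for ECT2, a regulator of cytokinesis, to 3.20 for HMMR in SUM159. Of 20 G2/M genes that are no kinesins, 17 were lower in MDA-MB-231 and all 20 higher in SUM159, beside the same shares of all genes, with medians of -0.79 and 2.46. Their summed level was 4378, 2310, 409 and 1958 CPM in the 4 libraries, beside 1477, 786, 156 and 748 CPM for the mitotic kinesins, and their part in the result was not tested. MKI67, the proliferation antigen, had 700, 314, 53.4 and 281 CPM.

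FOXM1, the activator of G2/M genes, had 321, 171, 22.6 and 95.8 CPM, with log2 fold changes of -0.93 (-0.99 to -0.87) and 2.08 (1.92 to 2.25). Of the 11 genes of the DREAM and MYB-MuvB complexes and FOXM1, 5 were lower in MDA-MB-231 (all genes 15.8%) and 4 higher in SUM159 (all genes 21.5%), with medians of -0.56 and 0.26. The lowest in MDA-MB-231 was MYBL2, the MYB subunit, at -1.68, and the lowest in SUM159 was RBL2, the p130 repressor, at -0.51. Among the mitotic kinesins, the 9 with TTTGAA had medians of -0.83 and 2.16 in the lines, and the 3 without it (KIF2C, KIF20A and KIF22) had -1.19 and 2.80. KIF5B, with both motifs shown above, had 0.08 and 0.42.

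The transport kinesins as a class stayed near the level of all genes. Their median change on the log2 scale was 0.03 in MDA-MB-231 over 12 genes and 0.04 in SUM159 over 13, and with DESeq2 size factors the first was -0.02. In MDA-MB-231, 2 were at least 1.5-fold higher and 3 lower (all genes 18.3% and 15.8%), and in SUM159 3 were higher and 0 lower (all genes 21.5% and 21.7%). Total counts alone shift all genes upward, and on that scale the transport kinesins had 3 higher and 0 lower in MDA-MB-231 (all genes 29.1% and 7.57%) and 5 higher and 0 lower in SUM159 (all genes 32.8% and 12.8%). Mitotic kinesins took 53.3% of the reads of both classes in MDA-MB-231 with DMSO (95% Clopper-Pearson interval 52.9 to 53.7), 40.4% with MBZ (39.9 to 40.9), 16.6% in SUM159 with DMSO (16.0 to 17.2) and 45.8% with MBZ (45.3 to 46.3). These shares do not depend on the normalization.

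The heavy chains of conventional kinesin differed in abundance and in response. KIF5B had 5520 and 4814 reads in MDA-MB-231 with DMSO and MBZ and 2354 and 3913 in SUM159, which gave 237 and 253 CPM and 142 and 190 CPM. KIF5A, the neuronal heavy chain (ENSG00000155980, chr12:57546026-57586633, plus strand), had 0 and 5 reads in MDA-MB-231 and 54 and 264 in SUM159. It was 3.92-fold higher with MBZ in SUM159 (log2 1.97, 1.55 to 2.42), and with DMSO at least 25.3-fold higher in SUM159 than in MDA-MB-231 against a floor of 3 counts. KIF5A made up 2.24% of KIF5A and KIF5B reads in SUM159 with DMSO (1.69 to 2.92) and 6.32% with MBZ (5.60 to 7.10). KIF5C, the third heavy chain, had 12, 7, 9 and 28 reads, and its 2.48-fold higher level in SUM159 rested on a wide interval (log2 0.20 to 2.59).

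The subunits of kinesin-2, the motor of cilia and of several cargoes, differed in direction in MDA-MB-231. KIF3A had 323, 376, 274 and 284 reads (log2 0.49, 0.27 to 0.71, in MDA-MB-231 and -0.26, -0.51 to -0.02, in SUM159). KIF3B, its usual partner, had 3442, 3109, 1868 and 1945 reads, 0.13 and -0.26. KIF3C, the alternative partner of KIF3A, had 1362, 668, 490 and 548 reads, and was 1.69-fold lower with MBZ in MDA-MB-231 (log2 -0.76, -0.89 to -0.62) and at -0.15 (-0.33 to 0.02) in SUM159. The share of KIF3C among KIF3C and KIF3A reads was therefore 80.8% in MDA-MB-231 with DMSO and between 64.0% and 65.9% in the other 3 libraries. KIF17, the homodimeric kinesin-2, had 18, 26, 15 and 43 reads, and its 1.74-fold in MDA-MB-231 had an interval that included 0 (-0.12 to 1.76).

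The kinesin-3 carriers move endosomes, vesicles and other organelles. KIF16B, the carrier of early endosomes, had 221 and 329 reads in MDA-MB-231, 1.80-fold higher with MBZ (log2 0.85, 0.60 to 1.10), and 231 and 265 in SUM159 (-0.12, -0.38 to 0.14). KIF1C, which carries vesicles and mRNA to the periphery, had 8196 and 4423 reads, 1.53-fold lower in MDA-MB-231, and 2815 and 3296 in SUM159 (-0.09, -0.16 to -0.02). KIF13B, a vesicle carrier, had 1508 and 809 reads, 1.54-fold lower in MDA-MB-231, and 226 and 290 in SUM159. Its exons overlap genes on the opposite strand by 864 bases in total. KIF1C and KIF13B lay close to the threshold, and neither KIF1C, KIF13B nor KIF3C reached it with total counts alone. KIF1B, a carrier of mitochondria, had 1245, 1041, 1511 and 2205 reads and log2 changes of 0.01 and 0.23.

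KIF13A separated the lines more than any other kinesin with over 3 reads in every library. This carrier of endosomes (ENSG00000137177, chr6:17759183-17987635, minus strand, 39 exons) had 1605 and 1104 reads in MDA-MB-231 and 7 and 9 in SUM159. With DMSO it was 161-fold higher in MDA-MB-231 (log2 7.33, 6.31 to 8.67). KIF13B was 4.75-fold higher there, and took 48.4% of KIF13A and KIF13B reads in MDA-MB-231 with DMSO and 97.0% in SUM159 with DMSO. With MBZ, KIF13A was at -0.27 (-0.38 to -0.16) in MDA-MB-231, under 1.5-fold, and it was not counted in SUM159.

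The minus-end transport motors did not reach 1.5-fold in either line after TMM normalization, but with total counts alone KIFC3 did in SUM159 (log2 0.85). KIFC3, a motor of apical transport and adherens junctions, had 265, 258, 149 and 218 CPM, with log2 fold changes of -0.06 (-0.112 to -0.003) and 0.55 (0.48 to 0.62), the latter short of 1.5-fold. KIFC2, a neuronal motor, had 21.0, 22.0, 37.1 and 32.1 CPM and changes of 0.05 and -0.21. Per kilobase of canonical transcript, KIFC3 was the most abundant kinesin in 3 of the 4 libraries, at 76.7 CPM per kb in MDA-MB-231 with MBZ, 44.5 in SUM159 with DMSO and 65.0 in SUM159 with MBZ. In MDA-MB-231 with DMSO the order began with KIF2C at 89.4, KIFC3 at 78.9 and KIFC1 at 78.4 CPM per kb. In SUM159 with DMSO, the first 4 were transport motors (KIFC3, KIF5B at 24.2, KIF1C at 21.5 and KIF3B at 18.4 CPM per kb), and KIF22 followed at 14.6.

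Of 18 cargo adaptors, which link kinesins to cargo, 17 were counted in MDA-MB-231, of which 3 were higher and 1 lower (median -0.15), and 18 in SUM159, of which 2 were higher and 1 lower (median -0.02), beside 18.3% higher and 15.8% lower of all genes in MDA-MB-231 and 21.5% and 21.7% in SUM159. KLC2, a light chain of conventional kinesin, was the highest in SUM159 at 0.89. Of 27 genes of dynein and dynactin, the motor that runs opposite to most kinesins, 26 were counted in MDA-MB-231 with 1 higher and 6 lower (median -0.17), and 24 in SUM159 with 1 higher and 0 lower (median -0.02). NDE1, the dynein regulator at kinetochores and centrosomes, was the lowest in MDA-MB-231 at -1.17.

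The other kinesins had medians of -0.21 in MDA-MB-231 over 7 genes (0.06 with total counts alone, where all genes were at 0.25) and 0.08 in SUM159 over 10. KIF21B, which restrains microtubule growth in neurons and lymphocytes (ENSG00000116852, chr1:200969390-201023714, minus strand), had 25 and 272 reads in SUM159, 8.70-fold higher with MBZ (log2 3.12, 2.53 to 3.78), the largest fold of a counted kinesin. In MDA-MB-231 it had 1 and 9 reads, below the minimum, a ratio of 9.68-fold with a log2 interval from 0.59 to 8.90. Its close relative KIF21A had 334, 360, 471 and 600 reads and changes of 0.38 and 0.03.

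KIF24 was the only counted kinesin of the other class that was at least 1.5-fold lower in MDA-MB-231 and higher in SUM159. This depolymerase, which caps centrioles and blocks cilium assembly, had 668 and 338 reads in MDA-MB-231 (log2 -0.71, -0.90 to -0.52) and 125 and 300 in SUM159 (0.95, 0.64 to 1.26), but was short of 1.5-fold in MDA-MB-231 with total counts alone. KIF2A, a depolymerase of spindle poles and of neurons, was classed as other, so statements on all 12 mitotic kinesins leave it out. With KIF2A as mitotic, and KIF21A and KIF21B as transport, the mitotic medians were -0.83 in MDA-MB-231 and 2.16 in SUM159. KIF2A is the depolymerase most similar in activity to KIF2C, and had 938, 810, 915 and 1055 reads and changes of 0.06 and -0.11. KIF2C thus took 86.4% of KIF2C and KIF2A reads in MDA-MB-231 with DMSO, 69.7% with MBZ, 17.9% in SUM159 with DMSO and 64.1% with MBZ. KIF26B, a kinesin without ATPase activity, had 40, 14, 17 and 23 reads and was 2.35-fold lower in MDA-MB-231 (log2 interval -2.23 to -0.33). KIF26A, its relative, had 0, 2, 7 and 19 reads.

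The other kinesins of cilia, beside the kinesin-2 motors above, were KIF7, KIF9 and KIF27. KIF7, the ciliary tip protein of Hedgehog signalling, had 668, 399, 460 and 512 reads (log2 -0.47 and -0.16). KIF9, a cilium motor, had 163, 157, 120 and 227 reads and was 1.52-fold higher in SUM159 (log2 0.60, 0.28 to 0.93). KIF27, of motile cilia, had 163, 117, 106 and 97 reads (-0.21 and -0.44), and KIF25, of centrosome position, had 0, 4, 15 and 16. Of the 36 counted kinesins, 19 overlap exons of genes on the opposite strand, of which KIF7, KIFC2, KIF13B, KIF9, KIF27 and KIF2A do so by 589 to 2446 bases, and without a stated strand setting their reads cannot be told from those of the partner. KIF1B and KIF2A also overlap exons on the same strand, by 293 and 331 bases. Of the 12 mitotic kinesins, 6 had no exonic overlap with another gene (KIF11, KIF14, KIF15, KIF18A, KIF18B and KIF20B), with medians of -0.80 and 2.02. The other 6 overlapped genes on the opposite strand by 77 to 561 bases in total.

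**Figure D5:**
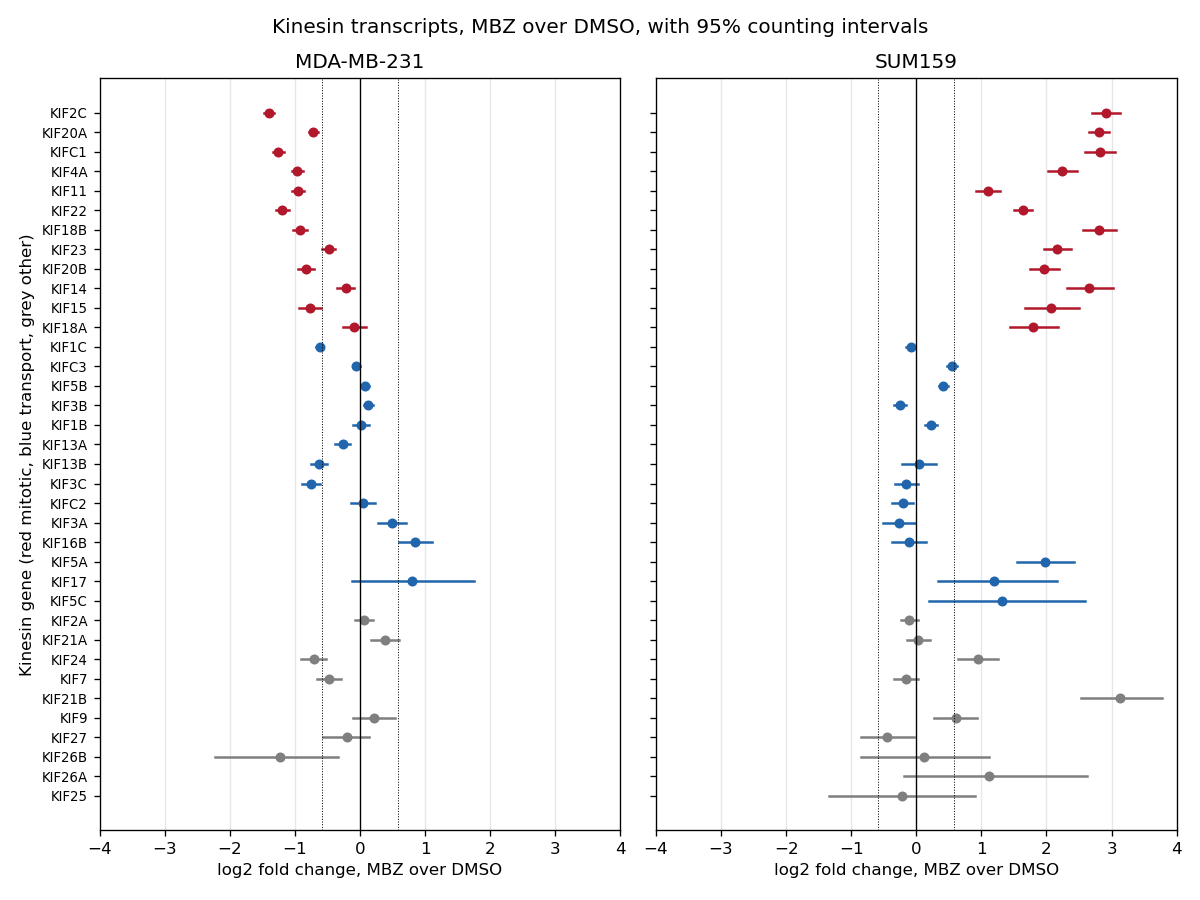
Log2 fold change with MBZ over DMSO (horizontal axis) for each kinesin (vertical axis) in MDA-MB-231 and SUM159, with 95% counting intervals as bars, dotted lines at 1.5-fold, and mitotic kinesins in red, transport in blue and others in grey. The mitotic intervals in SUM159 all lie above the upper dotted line, and those in MDA-MB-231 lie below 0 except that of KIF18A.

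Over the whole family, MDA-MB-231 had 2 of 31 counted kinesins higher and 14 lower with MBZ. SUM159 had 19 of 35 higher and 0 lower. In MDA-MB-231 the shares of all genes were 18.3% for higher and 15.8% for lower, and in SUM159 21.5% and 21.7%. With total counts alone, MDA-MB-231 had 4 higher and 7 lower (all genes 29.1% and 7.57%). SUM159 then had 21 higher and 0 lower (all genes 32.8% and 12.8%). The test made was for a change shared by both lines, where each line serves as a replicate and the spread comes from how unlike their responses were. With edgeR's quasi-likelihood test and Benjamini-Hochberg adjustment, 0 of 34 kinesins passed an adjusted p of 0.05, where 0.00621% of 16100 genes did (1 gene). The lowest adjusted p was 0.441, for KIF21B, with a fitted log2 change of 3.19 (SE 0.68). At an unadjusted p of 0.05, 2 kinesins passed, KIF21B and KIF5A (2.35, SE 0.79, adjusted p 0.609), beside 7.14% of all genes. With every gene of at least 1 count in the fit, 7 passed at that level, beside 6.14% of all genes. They were KIF14, KIF18A, KIF18B, KIF20A, KIF21B, KIF23 and KIF5A, all with a fitted change above 0. In MDA-MB-231 alone, KIF14, KIF18A, KIF18B, KIF20A and KIF23 were at log2 -0.22, -0.09, -0.92, -0.72 and -0.48. A fitted change above 0 is thus not a rise in both lines for these mitotic kinesins. KIF21B and KIF5A have their reads mainly in SUM159 and averaged fewer than 10 reads in MDA-MB-231 (1 and 9 for KIF21B, 0 and 5 for KIF5A), so their values say little on a change in that line. DESeq2's Wald test passed 0 of the 33 kinesins that it gave an adjusted p, the lowest being 0.113, and 0.677% of the 14763 genes with one. The 12 mitotic kinesins had standard errors of 0.50 to 1.08 and adjusted p of 0.751 to 0.976.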

How the data were processed

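Total RNA of 2 lines was poly(A)-enriched and sequenced in paired ends. The authors aligned with STAR 2.5 against GRCh38, assigned reads to genes with HTSeq 0.6.1 (union mode), and the deposited values are raw whole-number counts. The submitters' notes also name edgeR 3.16.5. The annotation release and strand setting are not given in the sources used here. Symbols were matched by Ensembl identifier for 58207 of 58735 genes, and coordinates, exons and overlaps come from GENCODE release 44. Per-gene counts carry no molecular identifiers, so intervals cover counting error only.

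Fold changes are differences of log2 CPM (edgeR 4.0.16, R 4.3.3, prior count 0.125) after TMM normalization of the pair, with 95% Clopper-Pearson intervals on the reads of the pair. CPM and ratios between lines used TMM over 4 libraries. The floor of 3 counts stood for 0.120 to 0.175 CPM. The shared change was fitted with line and treatment as terms (glmQLFit, filterByExpr), with DESeq2 1.42.0 as an alternative, and the functions were tested on simulated data. Any kinesin could be named, with CENPE, MKI67 and FOXM1, and of each other list the highest and lowest gene, of which some are not reported here. Members, classes and lists were chosen with earlier results of these data known. Alternatives were other scalings, count minimums, fold thresholds, prior counts and class assignments. The pseudogenes KIF28P, KIF19BP, KIF3AP1, KIF4CP and KIF18BP1 were left out.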

Additional observations from a re-analysis of the deposited data

Results flagged for a closer look

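In 10 of the 30 kinesins counted in both lines, MBZ was lower than DMSO in MDA-MB-231 and higher in SUM159, each by at least 1.5-fold. Of 13733 genes, 3.12% met this rule, and the difference was not tested since each arm holds 1 library. The log2 fold change in SUM159 exceeded that in MDA-MB-231 by 4.32 for KIF2C, 4.07 for KIFC1, 3.73 for KIF18B, 3.52 for KIF20A, 3.21 for KIF4A, 2.84 for KIF15, 2.83 for KIF22, 2.79 for KIF20B, 2.05 for KIF11 and 1.66 for KIF24. All but KIF24 are mitotic kinesins. With total counts alone, KIF15, KIF20A, KIF20B and KIF24 did not reach 1.5-fold in MDA-MB-231, which left 6 of the 10, against 2.17% of genes.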

How the results depend on the processing

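The shared test already pairs MBZ with DMSO within each line, through the term for line. No paired analysis was possible within a line because each group holds 1 library, and leaving out a library would leave the shared test no residual degrees of freedom. Scaling by total counts alone moved the median of all genes to 0.25 in MDA-MB-231 and 0.27 in SUM159. The mitotic median moved to -0.61 and 2.503 and the transport median to 0.30 and 0.34. For MDA-MB-231 this scaling gave 4 kinesins higher, beside 29.1% of all genes, and 7 lower, beside 7.57%. The number higher in MDA-MB-231 was 2 in the report, beside 18.3% of all genes. It was 7 with every kinesin of at least 1 count and 1 with a mean of at least 100 counts. It was 1 where the interval also had to exclude 0, and 0 at 2-fold. At 2-fold, 4 kinesins were lower in that line, beside 5.14% of all genes. For the other count minimums and the interval rule, no share of all genes is given. With every gene of at least 1 count, the shared test passed 0.923% of 32295 genes and 1 of 40 kinesins, KIF21B, with most of its reads in SUM159 (higher, adjusted p 0.003 by edgeR's quasi-likelihood test), against 0.441 in the report, 0.291 with RLE normalization and 0.113 with DESeq2. Scaling by total counts moved 49 of 66 single fold changes by more than their counting interval. The other scalings, the prior count of 2 and the other class assignment kept these counts within 1.5 times and these medians within their intervals. Depth limits the kinesins under about 50 reads, such as KIF17, KIF5C and KIF26B.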
